A study of Triticum aestivum with 12 samples.

Results

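The effect of putrescine (PUT) under B light was examined in the methylome of wheat leaves, by comparing plants treated with PUT under B light (BP) with untreated plants under the same light (BC). A locus was kept when its count exceeded 10 in 2 or more BP libraries or in 2 or more BC libraries, which gave 305423 of the 11509120 loci of the deposited table (2.65%). All BP and BC plants were winter wheat of the variety Mv Béres, grown hydroponically under light of 82.14% blue, 16.7% red, 1% green and 0.17% far-red at a photon flux density of 250 µmol m-2 s-1. BP plants received 0.5 mM PUT in the nutrient solution for 7 days, and BC plants received none. The W light groups, used here only for comparison, grew under 32.32% blue, 20.71% red, 45.71% green and 1.25% far-red, with PUT (WP) or without it (WC). Each of the 4 groups had 3 libraries, which the methods of the study describe as independent biological repetitions. By its statistical section, the methylation profile came from the repetition taken as most representative among 3 independent experiments. Values of a group are given below in the order of replicates 1, 2 and 3. No genotype other than this variety was used, so the results hold for a single variety read against the genome of another, Chinese Spring.

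Putrescine is a small diamine made from arginine or ornithine. Spermidine and spermine are built from it with aminopropyl groups donated by decarboxylated S-adenosylmethionine, the same compound that, before decarboxylation, donates the methyl group of 5-methylcytosine (5mC). Polyamine synthesis and DNA methylation therefore draw on a common precursor. In plants 5mC occurs in CG, CHG and CHH contexts and is dense over the transposable elements that make up most of a wheat chromosome. Wheat chromosomes are large, with genes crowded toward both ends and repeats filling the long middle part. MeDIP-seq captures DNA fragments that carry 5mC with an antibody, so the number of reads at a locus follows the amount of methylated DNA recovered there, without resolving single cytosines.

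The values are raw counts of reads per locus as the authors deposited them, with no normalization and no input libraries used here. The total count was 19641114 to 21355140 in BP and 19973576 to 20489813 in BC, within 15812048 to 21355140 in the whole series. The kept loci held 18.98%, 19.4% and 18.2% of the counts in BP libraries and 14.9%, 14.7% and 14.8% in BC libraries. The BP libraries were not alike. Pairs within a group were compared by chi-square units per degree of freedom, over counts summed in the windows defined below. BP replicate 3 differed from the other BP replicates by 33.2 to 49.6 such units. Any other pair within BP or BC differed by at most 10.96. Loci with 40 or more reads numbered 6374, 5827 and 8887 in BP libraries, against 1523, 1955 and 1564 in BC libraries. Reads on the mitochondrial genome were at 4.63, 6.13 and 7.35 CPM (counts scaled to the total of the library) in BP and at 13.8, 12.1 and 11.6 CPM in BC. In W light, mitochondrial reads were at 4.22, 3.33 and 4.04 CPM in WP and at 10.4, 5.10 and 5.62 CPM in WC. Loci with 40 or more reads numbered 5464, 4833 and 6036 in WP and 5875, 6822 and 6628 in WC, so BC libraries had the fewest of all. The library of WC replicate 1 stood apart from the other W light libraries. Its shares by position and length and its mitochondrial reads were close to those of BC, but its number of loci with 40 or more reads was not. Tests that set the 2 light conditions side by side are given with and without it. Leaf cells were pooled, so a change within cells and a change in the make-up of the leaf cannot be told apart.

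The kept loci were longer than the loci of the table as a whole, with a median length of 2595 bp against 522 bp, and covered 867 Mb of the 14225 Mb of the 21 chromosomes. Only 59792 of them (19.6%) passed the filter in BP and in BC. A further 159079 (52.1%) passed in BP alone and 86552 (28.3%) in BC alone. By CPM, every BP library lay above every BC library at 20988 of the loci that passed in BP alone and below at 12, and at 0 and 15520 of those that passed in BC alone, so the direction of such loci largely follows the filter. The median over the kept loci of the mean count of the 6 libraries was 10. At the limit of the filter, 67311 of the kept loci had 11 as the second highest count of their better group, and 21785 loci that were tested but fell outside had 10. Because single loci held so few reads, position and length were first described with counts summed over every locus of the table.

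The ends of the chromosomes held a smaller part of the MeDIP reads in BP than in BC libraries. No input libraries were used, so these shares describe recovered reads and not methylation itself. Of all counts on the 21 chromosomes, 10.03%, 9.86% and 9.27% lay within 50 Mb of a chromosome end in BP libraries, against 11.2%, 11.2% and 11.2% in BC libraries. Every BP library was below every BC library. The mean was 9.72 ± 0.400% in BP and 11.2 ± 0.0144% in BC (SD, n = 3 libraries each), a ratio of 0.867. The two-sided exact permutation test gave p = 0.1, which is the smallest p that 3 libraries against 3 allow, so this design cannot pass a threshold of 0.05 on such shares.

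The shortfall was deepest close to the ends and faded inward. Between 1 and 10 Mb from an end the share was 1.43%, 1.39% and 1.25% in BP against 1.69%, 1.68% and 1.695% in BC, a ratio of 0.803. Between 10 and 50 Mb the ratio was 0.877, and between 50 and 100 Mb it was 0.965. Beyond 200 Mb the order turned round, with 46.1%, 46.5% and 47.1% of the counts in BP against 44.97%, 44.97% and 44.98% in BC. Shares of a library add up to a whole, so a smaller share at the ends goes with a larger one elsewhere. The groups did not overlap in any of the 6 classes of distance. The outermost 1 Mb was the least changed of the distal classes, at 0.190%, 0.190% and 0.202% in BP against 0.203%, 0.208% and 0.204% in BC.

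**Figure D1:**
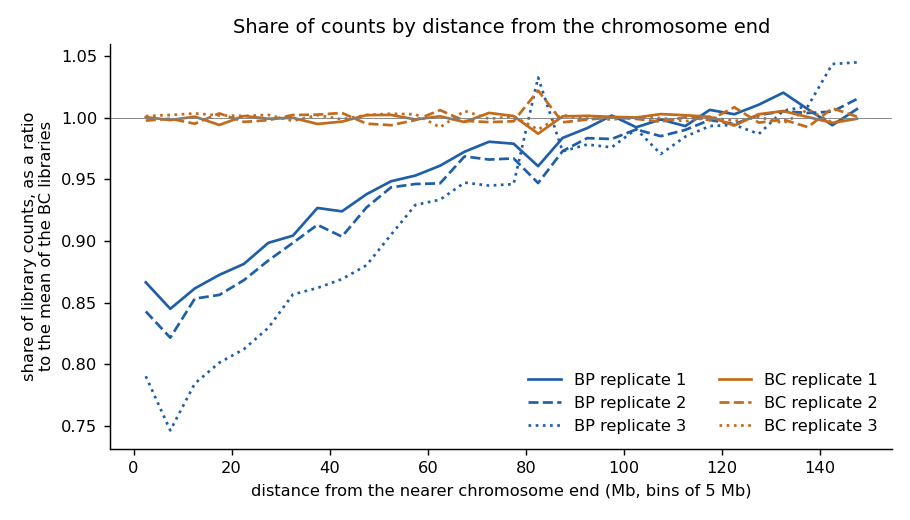
Share of each library's counts in bins of 5 Mb by distance from the nearer chromosome end (horizontal axis, Mb), divided by the mean share of the 3 BC libraries in that bin (vertical axis). The 3 BP lines lie below the BC lines near the ends and meet them about 100 Mb inward. BP replicate 3 lies lowest, and the bump at 80 to 85 Mb in BP replicate 3 and BC replicate 2 holds a single locus of very high count on chromosome 4B.

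Each chromosome was also divided into 10 parts of equal length, and the 2 outermost parts were lower in every BP library. The first part held 7.28%, 7.19% and 6.85% in BP against 7.88%, 7.89% and 7.91% in BC, and the last held 6.96%, 6.87% and 6.47% against 7.78%, 7.80% and 7.81%. The fifth part, in the middle of the chromosomes, held 11.6%, 11.7% and 12.1% in BP against 11.2%, 11.3% and 11.3% in BC. The second and the eighth part were the only ones in which the groups overlapped. Of 45 shares by chromosome, subgenome, part of the chromosome, distance and locus length, 22 did not overlap between BP and BC. Each of these reached the smallest possible p of 0.1, which became 0.205 after Benjamini-Hochberg adjustment over the 45.

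The distal shortfall was found on every chromosome. Within 50 Mb of the ends, the share of the counts of a chromosome was lower in all BP libraries than in all BC libraries for 21 of 21 chromosomes. The ratio of BP to BC ran between 0.784 on 7A and 0.933 on 4D. On 7A the distal share was 6.68%, 6.47% and 5.71% in BP against 8.11%, 7.94% and 8.02% in BC. On 4D it was 16.3%, 16.2% and 15.7% in BP against 17.3%, 17.2% and 17.2% in BC. Bread wheat carries the subgenomes A, B and D, one from each of its ancestors, and the ratio was 0.858, 0.866 and 0.871 in them. The start side of the chromosomes gave a ratio of 0.881 and the end side 0.852.

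**Figure D2:**
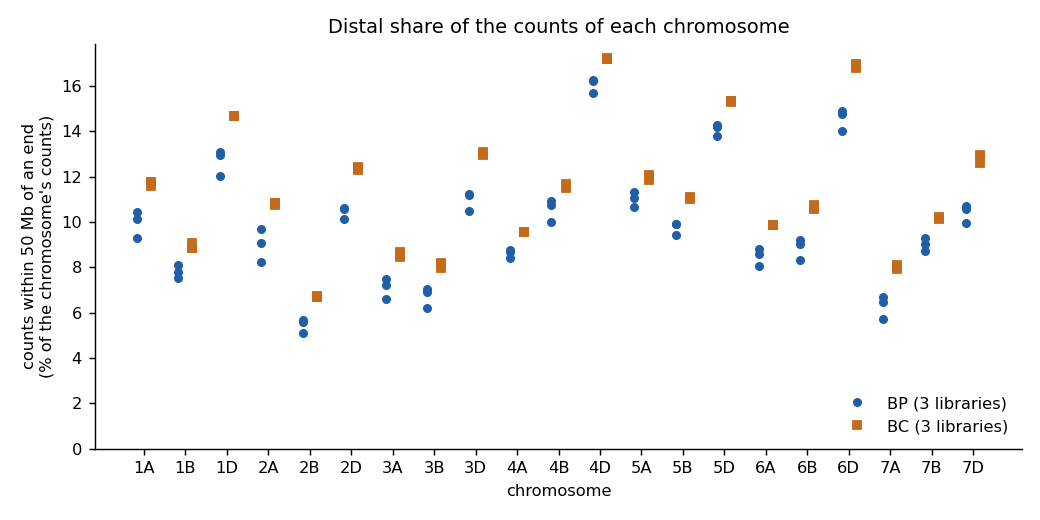
Percentage of the counts of each chromosome that lay within 50 Mb of one of its ends (vertical axis), for the 21 chromosomes (horizontal axis), with 1 point per library. All BP points lie below all BC points on each chromosome, with the ratio of the means between 0.784 on 7A and 0.933 on 4D.

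In windows of 10 Mb, where counts were large enough for a test of each region, the same gradient appeared. Of 1433 windows, 213 were lower (14.9%) and 80 higher (5.58%) in BP than in BC at an adjusted p below 0.05 with edgeR's quasi-likelihood test. Among the 223 windows centred within 50 Mb of an end, 152 fell and 0 rose, with a median log2 fold change of -0.24. Among the other 1210 windows, 61 fell and 80 rose, with a median of 0.04. By replicate ranges, 363 windows had every BP library below every BC library (25.3%) and 334 had every BP library above (23.3%).

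The changes were small in size and graded with distance. The median log2 fold change was -0.34 in the windows within 10 Mb of an end, of which 45 of 55 fell. It was -0.27 between 10 and 20 Mb, where 33 of 42 fell, and -0.20 between 20 and 50 Mb, where 74 of 126 fell. Between 50 and 100 Mb, 46 of 210 windows fell and 1 rose. Between 100 and 200 Mb, 15 fell and 16 rose among 420. Beyond 200 Mb, 63 of 580 windows rose and 0 fell, with a median of 0.06. All 21 chromosomes had lower windows within 50 Mb of their ends, from 2 of 11 on 4B and 2 of 10 on 4D to 11 of 11 on 7A and on 7D.

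**Figure D3:**
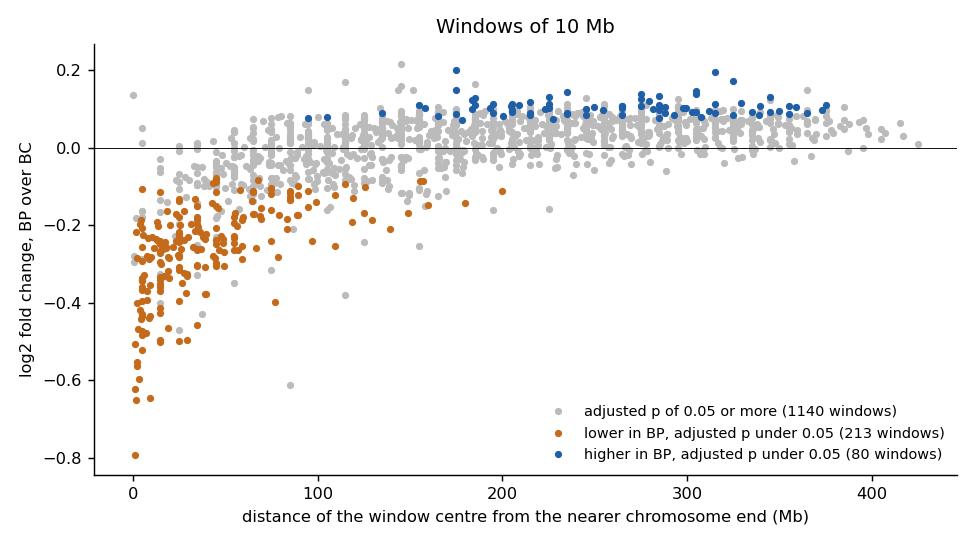
Log2 fold change of BP over BC (vertical axis) in 1433 windows of 10 Mb, by the distance of the window centre from the nearer chromosome end in Mb (horizontal axis). The 213 windows that fell in BP gather near the ends and the 80 that rose lie mostly in the middle part of the chromosomes.

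The 5 windows with the smallest p among those that fell lay on the B and D subgenomes. On 5B at 670 to 680 Mb, the scaled counts (CPM of the window counts) were 548, 551 and 532 in BP against 635, 618 and 647 in BC, with a log2 fold change of -0.22 ± 0.03 (SE) and an adjusted p of 0.01004. The groups were well apart there. The window of 6B at 40 to 50 Mb had 503, 498 and 476 in BP against 599, 614 and 602 in BC (log2 fold change -0.30). The first 10 Mb of 3B had 253, 232 and 210 in BP against 325, 317 and 329 in BC (log2 fold change -0.48). The window of 2B at 780 to 790 Mb (-0.32) and the first 10 Mb of 7D (-0.34) completed the 5. They held 111 to 193 protein-coding genes each.

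The 5 windows with the smallest p among those that rose lay far from the ends and held 11 to 57 protein-coding genes. On 1D at 170 to 180 Mb the CPM were 955, 936 and 996 in BP against 846, 832 and 834 in BC, with a log2 fold change of 0.20 ± 0.04 (SE) and an adjusted p of 0.0106. The others were 3A at 540 to 550 Mb (log2 fold change 0.11), 5D at 170 to 180 Mb (0.15), 4A at 420 to 430 Mb (0.12) and 7B at 280 to 290 Mb (0.11). None of the 10 windows overlapped between the groups.

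A few distal windows did not show the shortfall. Of the 223 distal windows, 7 had a log2 fold change above 0, and none of them passed the test. The first 10 Mb of 4A had CPM of 692, 751 and 884 in BP against 729, 784 and 733 in BC (log2 fold change 0.05, adjusted p = 0.566 with edgeR). This window holds the locus 4A:1-96, described below, with 83, 978 and 3077 counts in BP against 79, 730 and 165 in BC. Its part in the value of the window was not assessed here. The first 10 Mb of 4D had 757, 748 and 588 in BP against 697, 657 and 718 in BC (log2 fold change 0.01). On 4D, 3 of these 7 windows were found, and 4D was also the chromosome with the smallest distal shortfall.

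The number of windows past the threshold depended on single libraries. Without BP replicate 3 no window passed the adjusted threshold with edgeR, although 414 had an unadjusted p below 0.05 and the distal median stayed at -0.21. DESeq2 on all libraries called 294 windows lower and 187 higher. Without BC replicate 1, 2 or 3, windows that fell numbered 76, 88 and 72 and windows that rose 4, 5 and 5. Without BP replicate 2 there were 147 and 23. Summed over the tested loci alone, 24 windows fell and 0 rose, with a distal median of -0.14.

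Windows that fell were rich in genes and windows that rose were poor in them. The windows were split into 4 sets of about equal number by their protein-coding genes, the only genes counted in windows. In the set with the most genes (95 to 287), 176 of 358 fell and 0 rose, with a median log2 fold change of -0.13. In the set with the fewest (3 to 40), 2 of 359 fell and 53 rose, with a median of 0.07. Across the 1433 windows, Spearman's rho of the log2 fold change with the number of genes was -0.74, and with the distance from the end 0.68. Gene number and distance were themselves related (rho = -0.71), and the mean count of a window followed the log2 fold change as closely (rho = 0.77). Split likewise by mean count, 167 of 359 windows fell and 0 rose in the lowest set, and 0 of 358 fell and 53 rose in the highest set. Windows share libraries and are not independent, so these values describe the pattern only. The part of gene number, position and count in it was not tested.

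Under W light the same contrast was not detected at this scale. No window passed the adjusted threshold in WP against WC with edgeR, although 62 had an unadjusted p below 0.05. Within 50 Mb of an end lay 9.52%, 9.86% and 10.04% of the counts in WP and 11.1%, 9.77% and 9.81% in WC. The values of BP were therefore close to those of WP and of WC replicates 2 and 3, and those of BC were close to that of WC replicate 1. The difference between the effects of PUT under the 2 lights was tested as an interaction, and no window passed, with 158 at an unadjusted p below 0.05. Without WC replicate 1, 161 windows passed in the interaction, 144 with a lower and 17 with a higher effect under B light, while WP against WC still gave none. A difference of the PUT effect between the lights thus rested on whether this library was used.

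Counts per chromosome changed little. The share of a chromosome in the library differed without overlap on 5 of 21 chromosomes, higher in BP on 4D, 4B and 6D and lower on 1B and 3B. On 4D it was 4.31%, 4.24% and 4.23% in BP against 4.16%, 4.09% and 4.13% in BC, a ratio of 1.03. On 3B it was 5.44%, 5.43% and 5.22% in BP against 5.52%, 5.45% and 5.52% in BC, a ratio of 0.975. On 4B the groups overlapped without loci of a mean count above 100. The share was then 5.46%, 5.48% and 5.34% in BP against 5.43%, 5.32% and 5.41% in BC. On 4D, 6D, 1B and 3B they stayed apart in that setting. Among the tested loci alone, only 1B of these 5 chromosomes stayed apart. Over all loci the subgenomes overlapped, with 30.8%, 30.3% and 30.3% in D in BP libraries against 30.3%, 30.01% and 30.1% in BC libraries (exact permutation p = 0.2). The gradient along the chromosomes was thus larger than any difference between chromosomes.

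Short loci held a smaller share of the counts in BP than in BC libraries. Loci under 500 bp took 12.2%, 13.3% and 12.6% of the counts in BP against 16.5%, 17.1% and 17.1% in BC, with means of 12.7 ± 0.548% and 16.9 ± 0.362% (SD, n = 3 libraries each). Loci of 1000 to 2000 bp took 34.6%, 34.7% and 35.5% in BP against 32.8%, 32.8% and 32.5% in BC. Loci of 2000 to 5000 bp took 25.7%, 23.24% and 21.8% in BP against 21.5%, 19.8% and 20.7% in BC. In these 3 classes the groups did not overlap (exact permutation p = 0.1 each, the smallest possible). They overlapped for 500 to 1000 bp and for 5000 bp or more. A locus is a covered section of the genome over all libraries, so its length also follows how densely reads fall there.

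**Figure D4:**
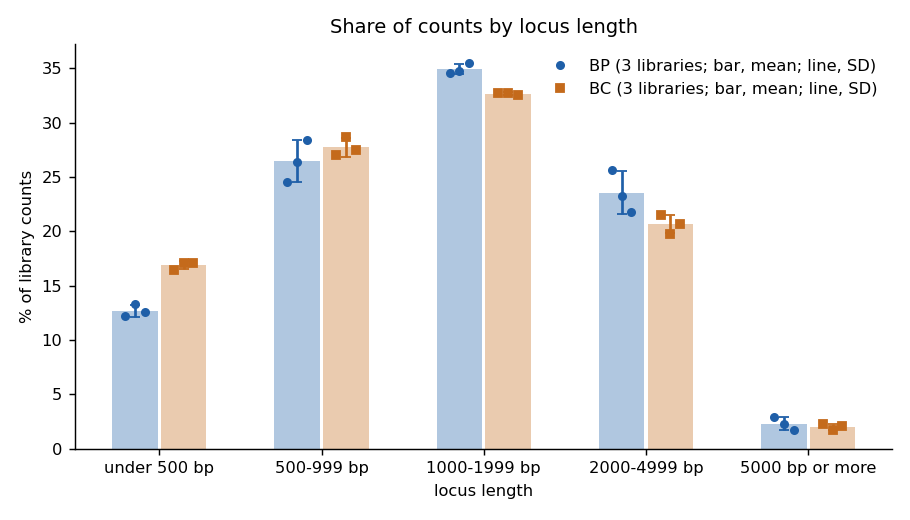
Percentage of the counts of a library (vertical axis) in 5 classes of locus length (horizontal axis), with 1 point per library, bars for the mean and lines for the SD of 3 libraries. The 3 BP libraries lie at 12.2% to 13.3% for loci under 500 bp, below the BC libraries at 16.5% to 17.1%.

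Part of the length pattern turned when only the tested loci were used. Among the tested loci alone, which hardly include short ones, loci under 500 bp held 0.0997%, 0.126% and 0.246% of the counts in BP against 0.0886%, 0.142% and 0.104% in BC, so the direction of the means turned. Loci of 2000 to 5000 bp held 65.5%, 63.5% and 63.8% there in BP against 66.9%, 66.2% and 66.5% in BC, which also turned. Length and position were related, since loci under 500 bp took 17.8% of the distal counts in BP and 23.7% in BC, and 12.2% of the other counts in BP and 16.0% in BC. The distal shortfall was nevertheless present within each length class. The ratio of BP to BC was 0.867 in loci under 500 bp, 0.880 in 500 to 1000 bp, 0.911 in 1000 to 2000 bp and 0.927 in 2000 to 5000 bp, without overlap of the groups. In loci of 5000 bp or more it was 0.855, and the groups overlapped.

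Single loci showed far less than the windows. With the quasi-likelihood test of edgeR over 539307 loci, 815 of the kept loci were higher and 495 lower in BP at the thresholds of the study, an unadjusted p below 0.01 and a log2 fold change beyond 1.5. Over all tested loci the calls were 1055 higher (0.196%) and 741 lower (0.137%). An adjusted p below 0.05 was reached at 10 loci (0.00185%), all of them kept loci. The filter largely set the directions, since 785 of the higher calls had passed in BP alone and 475 of the lower calls in BC alone. Of the 59792 loci that passed in both groups, 30 were called higher and 20 lower. The groups did not overlap at 615 of the loci called higher and at 414 of those called lower, while over all tested loci every BP library was above every BC library at 29817 (5.53%) and below at 25585 (4.74%).

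The balance of higher and lower calls depended on the scaling. The share of higher calls was 62.2% with TMM factors, 48.9% with library size alone (638 higher, 668 lower), 70.2% with RLE size factors (1134 and 481) and 80.5% with library size over every locus (1192 and 288). Leaving out BP replicate 2 gave 314 higher and 424 lower calls, and leaving out BC replicate 1, 2 or 3 gave 236, 281 and 211 lower calls. The likelihood ratio test of edgeR gave 2660 higher and 1473 lower calls, but no locus at an adjusted p below 0.05, as did DESeq2 with 2474 and 1339.

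Whether the calls carried over to libraries not used for them was read by calling loci on 2 BP and 2 BC libraries and looking at the remaining pair. At loci called higher, the BP library left out was above the BC library left out at 39.7%, 45.6% and 38.7% of the loci. The same share at all loci that had passed through BP alone was 38.4%, 49.1% and 44.4%. At loci called lower, the BP library was below at 64.2%, 40.3% and 34.0%, against 54.7%, 42.3% and 39.7% at all loci that had passed through BC alone. Compared with this background, the share was higher for both sets of calls made without replicate 1 and lower for the other 4 sets. No test was made of these shares, since the loci of a pair of libraries are not independent.

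The calls are given by position as a description only, since the filter set most of their directions and itself varied along the chromosomes. For each locus that had passed in BC alone, 1.16 had passed in BP alone between 1 and 10 Mb from an end, and 1.92 beyond 200 Mb. Of 3212 kept loci between 1 and 10 Mb from an end, 11 were called higher and 21 lower, and of 18681 between 10 and 50 Mb, 41 and 66. Beyond 200 Mb, 380 of 154508 were called higher and 194 lower. In the outermost 1 Mb, 7 loci were called higher and 1 lower among 539, and these are described below. By chromosome, the share of loci called higher was smallest on 1A, with 23 higher and 8 lower calls among 11982 loci, and largest on 7A, with 57 and 20 among 14304. Called loci were scattered, since only 23 pairs of neighbouring calls lay within 100 kb, 16 of them in the same direction.

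By length, the share of loci called higher was greatest in the shortest class, and the share called lower was not. Of 231 kept loci under 500 bp, 7 were called higher and 0 lower, and of 9159 of 500 to 1000 bp, 119 and 32. The 7 higher calls under 500 bp included 4A:1-96, 7D:314351-314449, 6B:1-169 and 6B:2326-2435, near chromosome ends and described below. BC replicate 2 was among the highest libraries at each of these. Of 79314 of 1000 to 2000 bp, 402 were called higher and 269 lower. Of 196023 of 2000 to 5000 bp, 277 were called higher and 184 lower, and of 20696 with 5000 bp or more, 10 and 10. The loci that had passed in both groups numbered 41, 185, 3121, 41497 and 14948 in these 5 classes, from short to long. Their share was thus smallest in the class of 500 to 1000 bp, not in the shortest class, which had the largest share of higher calls.

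The 10 loci at an adjusted p below 0.05 fell into 2 kinds. At 7 of them the groups overlapped, because BP replicate 1 was low, BP replicate 3 very high and BC replicate 2 also high. At the other 3 the groups were apart.

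The smallest p was found at the very start of chromosome 4A, at 4A:1-96, a locus of 96 bp. It had 83, 978 and 3077 counts in BP against 79, 730 and 165 in BC, 86, 184 and 125 in WP and 53, 184 and 86 in WC. BP replicate 1 lay beside the lowest BC library, and BC replicate 2 was above BP replicate 1. The log2 fold change was 2.05 ± 0.21 (SE), with an adjusted p of 9.39e-16 in edgeR. This SE, like those of the other loci, comes from the trend over loci. It does not measure the spread between libraries at the locus, where the CPM of BP were 340 ± 413 (SD). Without BP replicate 3 it was 0.39, and the adjusted p was 1.

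A further 5 loci, 4 of them on other chromosomes, followed the locus of 4A library by library. The locus 5A:346441270-346442186 had 85, 702 and 2498 counts in BP against 59, 566 and 149 in BC. The locus 4A:342355916-342356727 had 42, 450 and 1425 in BP against 27, 365 and 73 in BC. The locus 3B:234008614-234010295 had 26, 374 and 1335 in BP against 39, 310 and 61 in BC. All of these were high in the same libraries, in either group. The locus 7B:404154299-404155469 had 55, 375 and 964 in BP against 28, 215 and 67 in BC. The locus 3B:851932696-851934019, centred 662 bp from the end of the chromosome, had 29, 261 and 755 in BP against 28, 182 and 40 in BC. Over all 12 libraries the ratio of their counts to that of 4A:1-96 stayed between 0.623 and 1.52 for the 5A locus, 0.342 and 0.527 for the second 4A locus, 0.313 and 0.604 for the first 3B locus, 0.295 and 0.663 for the 7B locus and 0.189 and 0.419 for the 3B locus at the end. The count of 4A:1-96 itself varied from 53 to 3077. Loci with similar sequence share reads in an alignment, and whether these loci do was not tested. No annotated gene overlapped any of them.

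The same pattern held at the other ends. All 7 loci within 1 Mb of a chromosome end that were called higher had BP replicates 2 and 3 and BC replicate 2 as their 3 highest libraries among the 6. Beside the loci of 4A and 3B these lay on 7D, on 1A, at 2 places on 6B and on 6A. The first 169 bp of 6B, for example, had 13, 98 and 245 counts in BP against 18, 51 and 15 in BC. The first 517 bp of 6A had 1, 40 and 140 in BP against 3, 31 and 6 in BC. The calls in the outermost 1 Mb thus shared their high libraries, 1 of which was a BC library.

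The remaining locus with overlapping groups was 5B:144109266-144110471. It had 452, 519 and 7717 counts in BP against 549, 4066 and 617 in BC, with a log2 fold change of 0.73 ± 0.11 (SE) and an adjusted p of 1.71e-05 in edgeR. Without BP replicate 3 the log2 fold change was -2.20. A single library of each group held most of the counts.

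At 3 loci all BP libraries lay on one side of all BC libraries. The locus 1B:89315249-89317886 had 330, 345 and 120 counts in BP against 724, 616 and 658 in BC, with a log2 fold change of -1.60 ± 0.27 (SE) and an adjusted p of 0.000303. It holds TRNAL-UAG, a gene for a leucine tRNA at 1B:89316408-89316487. The locus 5D:567840431-567842405, about 2.09 Mb from the end and outside genes, had 437, 408 and 232 in BP against 681, 929 and 683 in BC, with a log2 fold change of -1.34 ± 0.25 (SE) and an adjusted p of 0.00532. The locus 6A:9974949-9979051, also outside genes, had 414, 433 and 174 in BP against 48, 39 and 117 in BC, with a log2 fold change of 2.06 ± 0.37 (SE) and an adjusted p of 0.00659. Under W light this locus had 52, 147 and 504 counts in WP against 28, 25 and 46 in WC, a log2 fold change of 2.93. It was thus higher with PUT under either light, with 1 WP library inside the range of BC. With one of the 7 libraries BP replicates 1 to 3, BC replicates 1 to 3 or WC replicate 1 left out, the adjusted p stayed below 0.05 in 5, 4 and 4 of the 7 fits for these 3 loci, and the log2 fold change kept its sign in all.

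**Figure D5:**
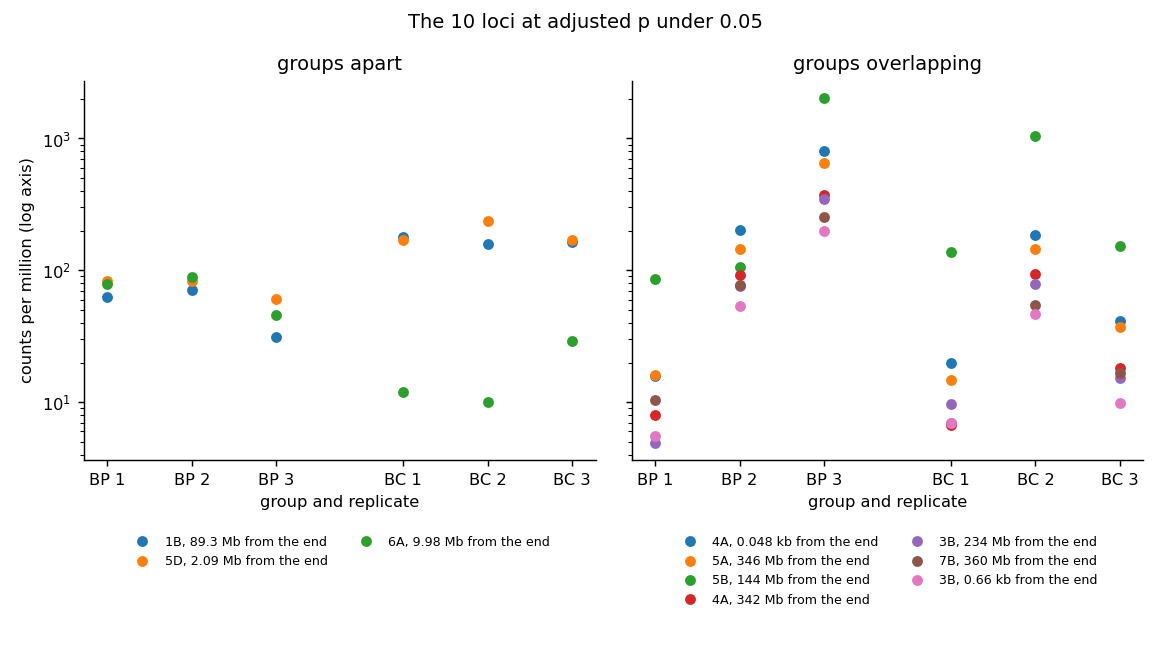
CPM over the tested loci (vertical axis, log scale) in each BP and BC library (horizontal axis) at the 10 loci with an adjusted p below 0.05, with 1 colour per locus. On the left the 3 loci at which the groups did not overlap, on the right the 7 at which BP replicate 1 lay low and BC replicate 2 high.

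Few kept loci lay in genes. Of the 305423 loci, 10680 overlapped an annotated gene (3.497%), of which 40 were called higher and 49 lower. Outside genes there were 775 higher and 446 lower calls among 294743 loci. At protein-coding genes 24 of 6824 loci were called higher and 30 lower, at pseudogenes 4 of 2091 higher and 16 lower, and at lncRNA genes 13 of 1741 higher and 3 lower. In each direction, the 10 genic calls of smallest p whose groups did not overlap are described next. None of them, apart from the tRNA locus of 1B, had an adjusted p below 0.05.

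Among the lower calls, the products of 2 protein-coding genes bore the names of proteins encoded in the chloroplast genome. They were picked out after their values were seen, and no test of them as a group was made. LOC123123368, annotated as a DNA-directed RNA polymerase subunit beta''-like gene at 5D:515685825-515692296, had 98, 102 and 59 counts in BP against 243, 290 and 266 in BC, a log2 fold change of -1.87 ± 0.40 (SE). The beta'' subunit belongs to the plastid-encoded RNA polymerase, whose genes lie in the chloroplast genome. LOC123067330, a photosystem II D2 protein-like gene at 1A:556464301-556466222, shares its locus with the serine tRNA gene TRNAS-GCU and had 117, 110 and 45 counts in BP against 176, 305 and 177 in BC (log2 fold change -1.55 ± 0.44). D2 forms the reaction centre of photosystem II together with D1 and is likewise encoded in the chloroplast. Lower calls at other genes included TRNAL-UAG, described above. Only the product names of protein-coding genes were read in this way, so tRNA genes were not sorted by it. The lncRNA gene LOC123123370, nearby at 5D:515704495-515715084, had 33, 37 and 2 counts in BP against 65, 120 and 78 in BC, and LOC123180887 on 1D had 185, 241 and 97 in BP against 430, 544 and 289 in BC. WC replicate 1 was also the highest WC library at TRNAL-UAG, LOC123067330, LOC123180887 and LOC123123368, with 258 counts at the last of these against 33 and 62 in the other WC libraries. It was not at LOC123123370, with 20, 0 and 25 counts in WC. Copies of organellar DNA in the nuclear genome can be near identical to their source, and reads of the organelles can then be placed on them. Whether the loci named here are such copies was not tested. Mitochondrial reads moved the same way between BP and BC, as given above, and their part in these calls was not tested.

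The other lower calls at genes came from loci with few reads in BP. The pseudogenes LOC123087415 on 4A (0, 10 and 1 counts in BP against 16, 52 and 53 in BC), LOC123067695 on 3B (0, 4 and 1 against 28, 24 and 15) and LOC123191430 on 2A (0, 0 and 0 against 16, 23 and 10) were among them. For groups without any count, a floor of 3 counts over the group gives a bound. LOC123191430 was at least 19.1-fold lower in BP than in BC by this bound. LOC123147140 on 7A had no count in BP against 17, 22 and 22 in BC, at least 23.8-fold lower. The overlapping genes LOC123167217 and LOC123167218 on 7D had none in BP against 11, 11 and 32 in BC, at least 21.05-fold lower. Such bounds cover counting error only, and the reads carried no molecular identifiers. In W light, the 7A locus had 0, 8 and 0 counts in WP and none in WC.

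The higher calls at genes were led by LOC123138634, a protein-coding gene on 6B. Its locus 6B:18132046-18136039 had 530, 275 and 141 counts in BP against 124, 37 and 99 in BC, a log2 fold change of 1.58 ± 0.36 (SE). It also had 119, 338 and 389 counts in WP against 34, 15 and 85 in WC, so the groups were apart under either light. LOC123145967 on 6D, annotated as bifunctional nuclease 1-like, had 26, 3 and 44 counts in BP against 1, 0 and 0 in BC. LOC123157902 on 1D, an uncharacterised protein-coding gene, had 19, 15 and 8 in BP and none in BC, at least 12.0-fold higher. The lncRNA gene LOC123180442 on 1D (13, 23 and 8 in BP) and the pseudogene LOC123045391 on 1A (11, 26 and 7 in BP) likewise had none in BC, at least 12.5-fold higher each.

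Higher counts were read at further non-coding genes. The lncRNA genes LOC123127345 on 6A (98, 16 and 16 in BP against 13, 1 and 4 in BC), LOC123044776 on 2B (29, 121 and 60 against 13, 7 and 20), LOC123062133 on 3A (17, 29 and 21 against 5, 0 and 0) and LOC123159868 on 7B (115, 69 and 37 against 27, 1 and 11) were called higher. The protein-coding gene LOC123111912 on 5B had 35, 52 and 8 counts in BP against 8, 0 and 2 in BC. In most of these genes, the single highest library held a large part of the BP counts. Under W light, LOC123062133 had 17, 10 and 65 counts in WP against 0, 6 and 6 in WC, and LOC123145967 had 15, 21 and 12 against 0, 7 and 5. LOC123111912 had 21, 22 and 45 in WP against 10, 47 and 31 in WC (log2 fold change 0.11), and LOC123180442 had 17, 0 and 13 against 0, 20 and 7 (log2 fold change 0.25). By CPM the W light groups were apart at LOC123138634, LOC123145967, LOC123062133 and LOC123127345, and they overlapped at the other 6 of these 10 genes.

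The genes that the study listed with the largest changes for this comparison were looked up in the same fit. They were chosen by the study on these samples, so their direction is not independent evidence. Within the gene itself a kept locus was found for 3 of the 10 genes listed as higher, all 3 called higher, and for 4 of the 10 listed as lower, 1 of them called lower. With 3000 bp added on each side all 20 genes had a kept locus, and 9 and 8 of them were called in the listed direction. LOC123145097 on 6D encodes a pentatricopeptide repeat protein, a family that binds organellar transcripts, and had 0, 17 and 17 counts in BP and none in BC, at least 9.69-fold higher. LOC123170858 on 7D, a glycine-rich cell wall structural protein 1-like gene, had 23, 17 and 3 in BP and none in BC, at least 12.3-fold higher. LOC123187203 on 2A, coding for a NAC domain transcription factor, had none in BP against 9, 13 and 17 in BC, at least 15.2-fold lower. LOC123145805 on 6D, a proton pump driven by pyrophosphate, had none in BP against 9, 12 and 11 in BC and missed the threshold (edgeR, unadjusted p = 0.0102). All 4 rested on at most 43 reads in the group that had any. For TaCRK6 (a receptor-like kinase), TaLHC7 (a chlorophyll a-b binding protein) and TaCAS (a calcium sensing receptor), whose transcripts the study measured, no kept locus lay in the gene.

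Lists of genes tied to PUT, methylation and light could be read only in part, because a product name was at hand for 1009 of 144966 annotated genes, taken from the study's own tables. Those tables report differences in these same samples, so the named genes are not an independent choice. The list of polyamine metabolism had 2 named genes and no kept locus in either. The list of DNA methylation and the S-adenosylmethionine cycle had a kept locus at 2 of 2 genes, with 0 calls and a median log2 fold change of -0.50. Light signalling had 2 named genes without a kept locus. Photosynthesis had 4 of 6 genes with a kept locus and 1 call, the D2-like gene given above. Defence and stress had 7 of 27 with 0 calls, and transcription factors 5 of 27 with 1 call, the NAC gene LOC123187203. Over all kept loci, 0.267% were called higher and 0.162% lower. With so few members, these counts and the median do not describe the pathways.

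At single loci, PUT gave more calls under W light than under B light, though no test of this count was made. Over all tested loci, 6756 were called higher (1.25%) and 2349 lower (0.436%) in WP against WC, of which 4081 and 1154 were loci kept here. Without WC replicate 1 these 4 counts were 4552, 2571, 3090 and 1645. Of the 815 kept loci called higher in BP against BC, 24 were also called higher and 2 lower in WP against WC. Of the 495 called lower, 5 were called higher and 0 lower. Without WC replicate 1, 22 and 5 of the 815 and 1 and 1 of the 495 were called higher and lower under W light. In the interaction, 5454 of all tested loci (1.01%) and 3121 of the kept loci were called in either direction, and 3833 of the kept loci without WC replicate 1. An adjusted p below 0.05 in the interaction was reached at 2 loci, the start of 4A described above and a locus on 4B.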

How the data were processed

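MeDIP-seq reads of 12 libraries were trimmed by the authors with Trim Galore and Cutadapt and aligned with BWA to the Chinese Spring genome IWGSC CS RefSeq v2.1. They took covered sections as loci with bedtools, and deposited raw counts of reads per locus and library, without normalization. The reads carried no molecular identifiers.

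From these counts, loci whose count exceeded 10 in 2 or more libraries of a group were tested with edgeR 4.0.16 (R 4.3.3) on all 12 libraries, with 1 coefficient per group, TMM factors and the quasi-likelihood test. The common dispersion was 0.951, with infinite prior degrees of freedom, so every locus took the spread of the trend. The SE at single loci rests on this spread and not on the replicates of the locus. P-values were adjusted over the 539307 loci (Benjamini-Hochberg). A call needed p below 0.01 and a log2 fold change beyond 1.5. CPM at loci use the TMM-scaled library size of these loci, and CPM of windows that of the windows. Windows of 10 Mb summed every locus by its midpoint, and those with a mean count under 100 were left out. Chromosome length was the largest locus end. Shares of library counts were tested by exact two-sided permutation, and the Benjamini-Hochberg adjustment of these p-values was made with scipy 1.17.1. Genes were those of RefSeq on the same assembly, assigned where locus and gene shared 1 bp or more. Scripts were tested on simulated data.

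Named genes were the loci at an adjusted p below 0.05, the 10 genic calls of smallest p per direction whose groups did not overlap, the genes of the study's list of largest changes as counts with 2 named per direction, its qRT-PCR genes, called members of the gene lists, and the 5 windows of smallest p per direction. The loci, lists and tests were chosen with earlier results of these data known. Alternatives were other tests, scalings, filters, window sizes and sample sets, a replicate block and each library left out in turn. Leaving out WC replicate 1, loci of 500 bp or more alone and the reading of calls in left-out libraries were chosen after seeing the data. Exons, strands and sequences were not used here.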

Additional observations from a re-analysis of the deposited data

Results flagged for a closer look

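The effect of PUT differed between the lights, by the interaction term of edgeR's quasi-likelihood test, at 2 of the 539307 loci. At the start of chromosome 4A, 4A:1-96, the log2 fold change was 2.05 in BP against BC and 0.42 in WP against WC, a difference of 1.62 (adjusted p = 0.0114). Without BP replicate 3 this difference was -0.03 with an adjusted p of 1, without BC replicates 1 and 3 the adjusted p was 1.00 each, and with the replicate number as a block it was 1.

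The other locus, 4B:592421107-592422674, lies outside the rule for named genes and was chosen after its values were seen. It had 6152, 5434 and 26466 counts in BP against 8176, 15541 and 8557 in BC, and 5055, 3956 and 3825 in WP against 6318, 5868 and 4801 in WC. The difference of the log2 fold changes was 0.43 (adjusted p = 8.44e-07 with edgeR). The groups overlapped under B light, where BP replicate 3 and BC replicate 2 were the highest libraries, and without BP replicate 3 the difference was -0.998. Without WC replicate 1 the adjusted p was 0.924, without BC replicates 1 and 3 it was 1.00 each, and with the replicate number as a block the difference was 0.19 with an adjusted p of 1.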

How the results depend on the processing

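At single loci, the number of kept loci called higher and lower was 815 and 495. It became 2660 and 1473 with the likelihood ratio test and 2474 and 1339 with DESeq2. Other filters changed the set of loci from the 305423 kept here. Calls were 1860 and 1227 of 1235586 loci with counts above 5, and 67 and 74 of 34153 with counts above 20. With no filter they were 2911 and 1481 of 11509084. With library size over every locus 288 of the kept loci were called lower, and with the 6 BP and BC libraries alone 950. Leaving out 1 library gave 314 to 1438 higher calls (lowest without BP replicate 2, highest without WC replicate 1) and 211 to 699 lower calls. The 10 loci at an adjusted p below 0.05 became 0 with the likelihood ratio test, DESeq2, counts above 20 and the 6 libraries, 2 with the kept loci alone, 38 with counts above 5, 19 with no filter, and 2 to 17 with 1 library left out. The 3121 loci called in the interaction became 7501 with the likelihood ratio test and 1963 to 3833 with 1 library left out. At 5B:144109266-144110471 the log2 fold change was -2.20 without BP replicate 3, the only setting that turned its sign, and up to 2.34 without BC replicate 2.

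Of 1433 windows, 80 rose and 213 fell. Windows of another size differ in number, so their counts are given with their totals. Of 578 windows of 25 Mb, 78 rose and 119 fell, in each case a larger part than of the 1433. Of 13899 windows of 1 Mb, 5 rose and 226 fell, in each case a smaller part. The 80 that rose became 0 with the tested loci alone, 51 with the likelihood ratio test and 187 with DESeq2. They became 15 with loci of 500 bp or more and 0 to 166 with 1 library left out. The 213 that fell became 24 with the tested loci alone, 138 with loci of 500 bp or more and 0 to 286 with 1 library left out. The median of the distal windows was negative in each of these fits. Over the tested loci alone, 12 of 45 shares did not overlap in place of 22, the distal share differed by -0.774 percentage points (BP minus BC) in place of -1.49, and the share of loci under 500 bp by 0.0457 in place of -4.19. By the number of loci with a count in place of the counts, the last was -3.49. With 3000 bp added around genes, 4 listed genes were called in place of 2. For shares and windows fewer loci entered. The cause of the other differences was not tested.

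The replicate numbers did not pair the samples. Deviations of same-numbered BP and BC libraries from their group means correlated across loci with r = 0.160, -0.0820 and -0.0882. With the replicate number as a block, 447 loci were called higher and 244 lower, 8 had an adjusted p below 0.05, 1679 were called in the interaction, and 40 windows rose and 197 fell. Depth limited single loci, with a median mean count of 10.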
